A study of Mus musculus with 18 samples.

Results

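The 10 integrin genes described here were taken from a list of names, made with earlier results of these data known and with no threshold on a measured value: the β subunit genes Itgb1, Itgb3 and Itgb5 and the α subunit genes Itga1, Itga3, Itga4, Itga5, Itga6, Itgav and Itga11. They are 10 of the 47996 genes counted in the RNA libraries and 10 of the 18415 protein-coding genes whose bodies were compared with regions called from chromatin immunoprecipitation (ChIP-seq). The cells were an SV40-immortalized line of dermal fibroblasts from newborn male 129/S6 mice, labelled as double knockouts for macroH2A1 and macroH2A2, with a transgene that gives macroH2A2-GFP in the presence of doxycycline. MacroH2A2 is a histone H2A variant that carries a large globular domain. Poly(A) RNA was measured in biological triplicates before doxycycline (0h) and after 6h and 24h at 0.5 ug/ml. MacroH2A2-GFP was mapped by native ChIP-seq with an antibody fragment against GFP, with 1 library before doxycycline (0h) and 1 each after 6h, 24h and 5d. Flavopiridol at 0.5 uM was present for the final 18 hours of a further 24h library. A separate pair of libraries, taken after 6h and after 24h, came from cells that had received 5 uM GSK126 for 10 days. Flavopiridol inhibits CDK9, a kinase needed for transcript elongation, and GSK126 inhibits Ezh2, the enzyme that writes histone H3 lysine 27 methylation. Every macroH2A2-GFP and RNA sample therefore shared the double knockout, the immortalization and the transgene, and the labels set 0h apart by the lack of doxycycline. No sample had doxycycline without the transgene. An effect of doxycycline itself therefore cannot be told apart from an effect of macroH2A2. A further ChIP-seq library profiled H2A.Z, a histone variant found around active start sites, in wild-type fibroblasts cultured from the skin of newborn female mice and not immortalized. All macroH2A2-GFP and RNA samples came from that 1 line.

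Integrins are cell surface receptors made of 1 α and 1 β subunit that bind the extracellular matrix outside the cell and, through adaptor proteins, the actin cytoskeleton inside it. In fibroblasts the β1 chain pairs with α1 and α11 to bind collagens, with α3 and α6 to bind laminins, and with α5 to bind fibronectin, while αv pairs with β1, β3 or β5 to bind ligands that carry an arginine-glycine-aspartate motif, such as fibronectin and vitronectin. The α4 subunit binds fibronectin and VCAM1 and is best known from leukocytes.

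RNA libraries held 29338093 to 37793178 counts over genes. H2afy2, the gene of macroH2A2, stood at a mean of 15.1 CPM (counts scaled to the total of each library) at 0h, 820.2 at 6h and 1727 at 24h, which checks the induction but cannot separate transgene from endogenous transcripts. Of 10 fibroblast marker genes 9 passed the filter on low counts, and their summed level was 10205 to 10479 CPM at 0h, 9317 to 9520 at 6h and 9591 to 9979 at 24h. Defining markers of other cell types had no count in any library, among them Krt5 and Krt1 (keratinocytes), Emcn (endothelium), Adgre1 and Cd3e (leukocytes), Gp9 and Pf4 (platelets), Sox10 (Schwann cells), Dct and Tyr (melanocytes) and Myod1 and Myog (muscle). The muscle list summed to 4.28 to 5.42 CPM at 0h, 11.5 to 11.9 at 6h and 3.65 to 3.95 at 24h, almost all of it Acta1, and the mural list to 163 to 174, 158 to 162 and 137 to 153 CPM. The part of these shifts in the integrin results was not tested.

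Promoter sequences of 4 integrin genes are given because macroH2A2 regions ended just upstream of their start sites in nearly every library, as described further on. Each is the 250 bases before the RefSeq start site (build GRCm38.p6), written 5′ to 3′ along the gene's strand, with matches to the motifs searched in capitals. Itgb1 lies on the forward strand (chr8:128685404-128685653), Itgb5 on the forward strand (chr16:33829415-33829664), Itga5 on the reverse strand (chr15:103366792-103367041) and Itga3 on the reverse strand (chr11:95076715-95076964).
Itgb1: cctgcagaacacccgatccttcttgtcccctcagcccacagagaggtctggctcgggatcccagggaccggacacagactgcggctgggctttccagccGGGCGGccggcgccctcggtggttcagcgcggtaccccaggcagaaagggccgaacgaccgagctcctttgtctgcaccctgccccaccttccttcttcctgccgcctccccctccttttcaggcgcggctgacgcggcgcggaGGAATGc
Itgb5: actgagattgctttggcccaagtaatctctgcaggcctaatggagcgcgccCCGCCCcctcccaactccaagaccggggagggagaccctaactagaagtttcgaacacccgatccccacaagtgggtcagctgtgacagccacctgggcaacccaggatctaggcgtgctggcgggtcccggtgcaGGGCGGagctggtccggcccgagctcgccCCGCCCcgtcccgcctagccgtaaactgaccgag
Itga5: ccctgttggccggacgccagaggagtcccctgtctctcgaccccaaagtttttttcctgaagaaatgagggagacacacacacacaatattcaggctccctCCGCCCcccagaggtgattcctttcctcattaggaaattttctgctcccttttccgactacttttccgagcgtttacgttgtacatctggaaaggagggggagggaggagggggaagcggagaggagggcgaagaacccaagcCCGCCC
Itga3: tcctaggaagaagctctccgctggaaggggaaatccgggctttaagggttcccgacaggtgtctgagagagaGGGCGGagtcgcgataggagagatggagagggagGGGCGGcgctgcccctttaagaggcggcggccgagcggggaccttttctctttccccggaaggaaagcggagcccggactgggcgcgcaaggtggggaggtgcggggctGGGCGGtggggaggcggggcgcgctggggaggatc
The motifs were searched on both strands and none of them overlaps another in these 4 windows. The GC box GGGCGG was found in 5 of the 8 integrin promoters that matched the sequence table (Itgb1, Itga3, Itga4, Itga5 and Itgb5) and in 32.9% of 27025 mouse promoters. Itga3 and Itgb5 each held 3 of them, Itga5 held 2 and Itgb1 held 1, which lay 151 bases before the start. GGAATG, the core bound by TEAD factors, was found in Itgb1 alone, 7 bases before the start, and in 12.6% of all promoters. The AP-1 site TGANTCA (6.87% of all promoters), the E-box CACGTG (6.05%) and the CArG box bound by serum response factor (1.40%) were in none of the 8.

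At 6h of macroH2A2 induction the integrin genes did not move as a block. Itgb1, Itga5, Itga6 and, by a small margin, Itgav rose, Itgb5 and Itga3 fell, and by 24h all 6 had returned towards their starting level. Itgb1 was 39.7% higher at 6h and Itgb5 22.9% lower. Of the 10 genes 9 passed the filter on low counts, and at 6h 4 were called higher and 2 lower (edgeR, adjusted p under 0.05). Over all 13785 genes tested 20.8% were called higher and 18.2% lower, 39.0% together. At 24h against 0h none of the 9 was called by edgeR or by DESeq2, while 2 had an unadjusted p under 0.05 (Itgav and Itgb5) and 7.04% of all genes were called, 4.17% higher and 2.87% lower. Between 6h and 24h 4 were called lower and 2 higher, against 18.8% and 17.4% of all genes, or 36.1% together. The median log2 change of the 9 genes was 0.068 at 6h and -0.051 at 24h, and over all genes tested it was 0.0067 and -0.0017. The median size of the change, without its sign, was 0.32 at 6h for the integrins and 0.13 for all genes, and at 24h it was 0.053 and 0.065. A call at 6h, a call the other way from 6h to 24h and no call at 24h was seen in 6 of the 9 integrin genes, beside 25.7% of all genes tested. These 6 were all of the integrin genes called at 6h, beside 65.8% of the 5377 genes called at 6h. In bulk RNA a change in the level per cell cannot be told apart from a change in the mix of cells.

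**Figure D1:**
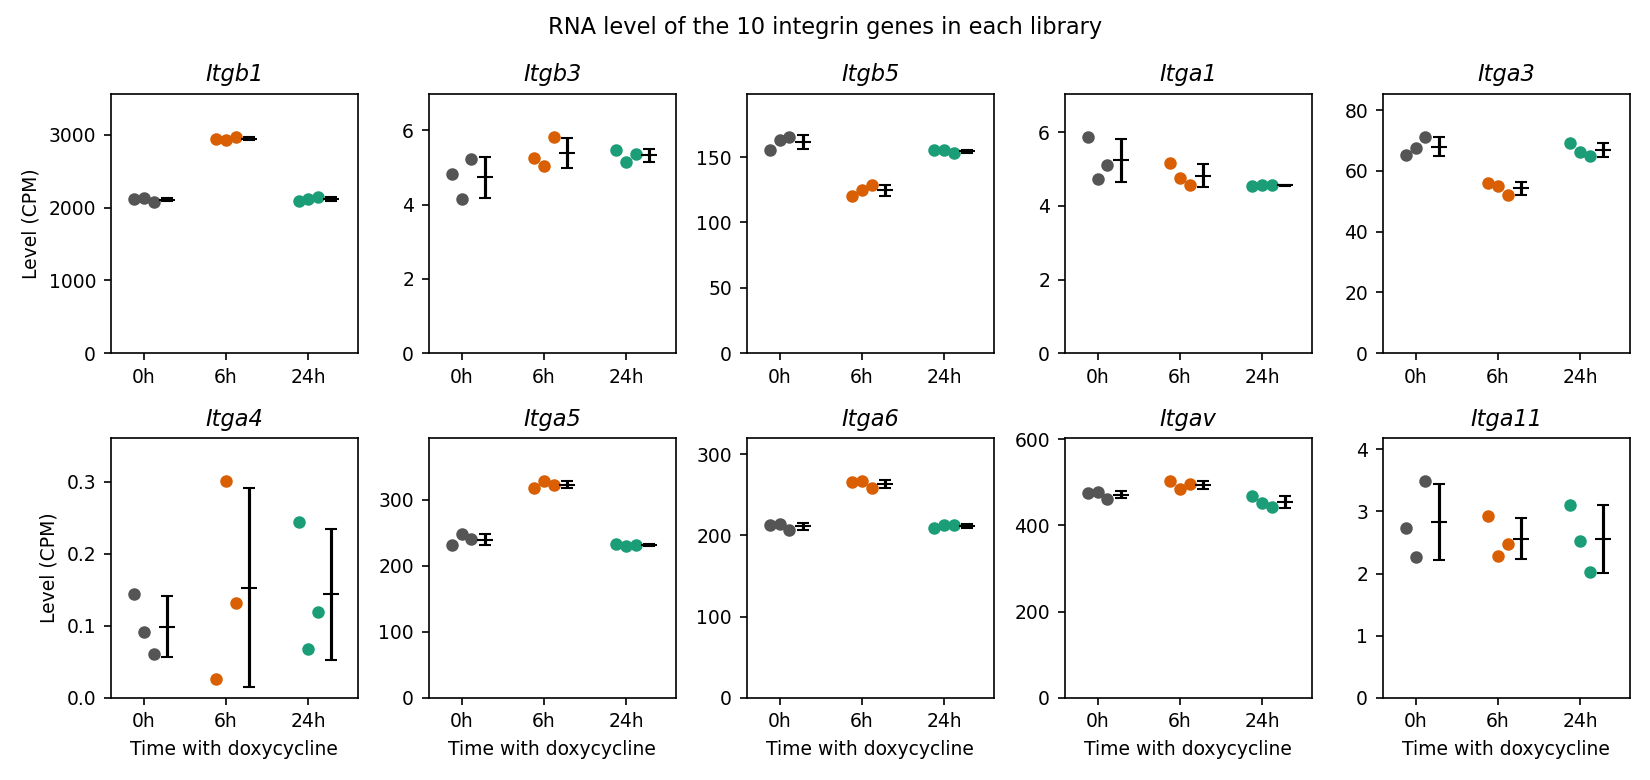
Level of each integrin gene in CPM (vertical axis, linear and starting at 0, scaled per gene) in the 3 libraries at 0h, 6h and 24h of doxycycline; points are libraries, bars are the mean and SD. The 6h points of Itgb1, Itga5 and Itga6 stand above all others, and those of Itgb5 and Itga3 below.

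**Figure D2:**
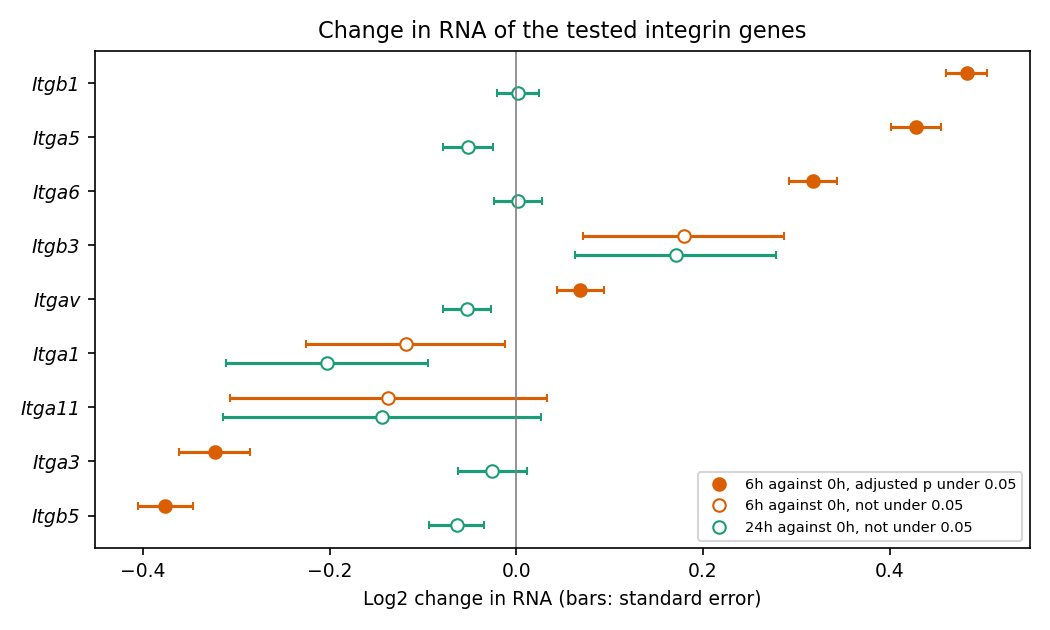
Log2 change in RNA at 6h and at 24h against 0h (horizontal axis) for the 9 integrin genes tested, with standard errors from edgeR; filled points passed an adjusted p of 0.05. At 6h the changes run from -0.38 in Itgb5 to 0.48 in Itgb1, and no 24h point is filled.

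Among the β subunits, Itgb1, the common partner of most α chains in fibroblasts, had levels of 2120, 2134 and 2083 CPM at 0h, 2947, 2932 and 2975 CPM at 6h, and 2086, 2118 and 2142 CPM at 24h. Every 6h library was above every other library, while the 0h and 24h libraries overlapped. The log2 change was 0.48 ± 0.022 (SE) at 6h (edgeR adjusted p = 4.62e-16), 0.0020 ± 0.022 at 24h (edgeR adjusted p = 0.98) and -0.48 ± 0.022 from 6h to 24h (edgeR adjusted p = 3.87e-16). Itgb5, which pairs with αv as a vitronectin receptor, moved the other way, with 156, 163 and 165 CPM at 0h, 120, 125 and 129 CPM at 6h and 155, 155 and 153 CPM at 24h. Its 6h libraries were below all others, and its 24h libraries were also just below the 0h libraries. The log2 change was -0.38 ± 0.030 (SE) at 6h (edgeR adjusted p = 4.88e-11), -0.064 ± 0.029 at 24h (edgeR adjusted p = 0.224) and 0.31 ± 0.030 from 6h to 24h (edgeR adjusted p = 2.49e-09). Itgb3, the other αv partner, was scarce at 4.82, 4.15 and 5.24 CPM at 0h, 5.26, 5.05 and 5.83 CPM at 6h and 5.46, 5.14 and 5.37 CPM at 24h. Its groups overlapped at all times, and the log2 change at 6h was 0.18 ± 0.11 (SE; edgeR adjusted p = 0.201). Counts of 137 to 202 per library limited the precision for Itgb3.

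Of the α subunits that bind fibronectin, Itga5 had 231, 248 and 240.1 CPM at 0h, 317, 328 and 322 CPM at 6h and 232, 229 and 232 CPM at 24h. The 6h libraries stood apart, and the 24h libraries lay at the lower edge of the 0h range. The log2 change of Itga5 was 0.43 ± 0.027 (SE) at 6h (edgeR adjusted p = 3.90e-13), -0.051 ± 0.027 at 24h (edgeR adjusted p = 0.30) and -0.48 ± 0.027 from 6h to 24h (edgeR adjusted p = 3.93e-14). Itga5 and Itgb1 together make the main fibronectin receptor, and the increase at 6h was 34.5% for Itga5 and 39.7% for Itgb1. Itgav, the α chain shared by the vitronectin receptors, had 474, 478 and 461 CPM at 0h, 502, 484 and 496 CPM at 6h and 468, 452 and 442 CPM at 24h. The 6h libraries were above the rest by a narrow margin, and the 24h and 0h libraries overlapped. The log2 change at 6h was 0.069 ± 0.025 (SE; edgeR adjusted p = 0.0321), a rise of 4.86%, and from 6h to 24h it was -0.12 ± 0.025 (edgeR adjusted p = 0.000363). The call at 6h was lost with RLE scaling (edgeR adjusted p = 0.0504), with DESeq2 (adjusted p = 0.0502) and without 0h replicate 3 (edgeR adjusted p = 0.137), 6h replicate 1 (edgeR, 0.135), 6h replicate 3 (edgeR, 0.123) or 24h replicate 2 (edgeR, 0.0632). The calls of the other 5 genes at 6h, and of all 6 from 6h to 24h, held in each of the 15 alternatives run. Itga4 was not tested, with 1 to 10 counts per library and at most 0.30 CPM.

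The laminin-binding α subunits moved apart. Itga6, which also marks basal epidermal cells, had 213, 214 and 207 CPM at 0h, 265, 266 and 258 CPM at 6h and 209, 213 and 213 CPM at 24h. Its 6h libraries were above all others, with a log2 change of 0.32 ± 0.026 (SE; edgeR adjusted p = 6.45e-11), and the change at 24h was 0.0020 ± 0.026 (edgeR adjusted p = 0.983). Itga3 had 65.3, 67.5 and 71.2 CPM at 0h, 55.9, 55.01 and 51.9 CPM at 6h and 69.3, 66.2 and 64.8 CPM at 24h. All 6h libraries were below the rest, with a log2 change of -0.32 ± 0.038 (SE; edgeR adjusted p = 8.99e-08), and 0h and 24h overlapped at -0.025 ± 0.037 (edgeR adjusted p = 0.787). From 6h to 24h Itga6 changed by -0.32 ± 0.026 (edgeR adjusted p = 8.67e-11) and Itga3 by 0.30 ± 0.038 (edgeR adjusted p = 4.56e-07). So the partners of β1 for laminin went in opposite directions at 6h, each by more than the spread between its replicates.

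The collagen-binding α subunits Itga1 and Itga11 were low and passed no test. Itga1, a receptor for collagen IV and other collagens, had 5.87, 4.72 and 5.12 CPM at 0h, 5.15, 4.74 and 4.55 CPM at 6h and 4.54, 4.56 and 4.57 CPM at 24h. Itga11, a fibroblast receptor for fibrillar collagen, had 2.74, 2.27 and 3.48 CPM at 0h, 2.93, 2.28 and 2.48 CPM at 6h and 3.11, 2.52 and 2.02 CPM at 24h. The 24h libraries of Itga1 were just below those at 0h, with a log2 change of -0.20 ± 0.11 (SE; edgeR adjusted p = 0.306), and the times of Itga11 overlapped fully. At 6h the log2 change was -0.12 ± 0.11 for Itga1 (SE; edgeR adjusted p = 0.415) and -0.14 ± 0.17 for Itga11 (SE; edgeR adjusted p = 0.569), with 134 to 206 and 68 to 117 counts per library, so a change of the size seen in Itgav would not have been detectable in these 2 genes at this depth.

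Of 17 further integrin genes 10 passed the filter, 1 rose and 2 fell at 6h (20.8% and 18.2% of all genes), and none was called at 24h by edgeR (7.04% of all genes), where 1 had an unadjusted p under 0.05. Itgb7, the partner of α4 and αE, fell from 15.6, 14.6 and 12.9 CPM at 0h to 9.66, 8.79 and 7.17 CPM at 6h, and stood at 15.1, 17.6 and 16.1 CPM at 24h. Its 6h libraries were below all others, with a log2 change of -0.74 ± 0.089 (SE; edgeR adjusted p = 1.30e-07) at 6h and 0.91 from 6h to 24h. Itgb8, which with αv binds latent TGF-β, went from 7.67, 6.66 and 5.51 CPM to a mean of 5.39 ± 0.483 (SD, n = 3) at 6h and 6.53 ± 0.486 at 24h. Its call at 6h (log2 -0.30, edgeR adjusted p = 0.0337) was lost with DESeq2 (adjusted p = 0.0501) and without 0h replicate 1 (edgeR, 0.272), 0h replicate 2 (edgeR, 0.0761), 6h replicate 1 (edgeR, 0.157) or 6h replicate 3 (edgeR, 0.0677). Itga2, a collagen receptor subunit, had 5 to 8 counts per library at 0h and 14 to 25 at 6h, with a log2 change of 1.47 ± 0.39 (SE; edgeR adjusted p = 0.00324). No DESeq2 result was at hand for this rise. The fall of Itga2 from 6h to 24h (log2 -1.31) was lost without 6h replicate 2 (edgeR adjusted p = 0.0737). The other genes that passed the filter were not called by edgeR in any comparison. Itga7 stood at 14.4 to 17.2 CPM over the 9 libraries, Itga2b at 2.6 to 3.42 CPM and Itga8 at 1.04 to 2.18. Itga10 stood at 0.817 to 1.45 CPM, Itgb4 at 0.594 to 1.09, Itga9 at 0.417 to 1.16 and Itgb2 at 0.167 to 0.542. Itgb4, the only partner of α6 besides β1, thus stood near 1 CPM.

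By the size of their changes at 6h and 24h together, the genes nearest to Itgb1 among 8849 genes of 10 CPM or more were Gpcpd1, Rrp12 and Ebna1bp2, with summed absolute differences of 0.010, 0.018 and 0.021 on the log2 scale. Those nearest to Itgb5 were Elovl6, Gsn and Krt80, with 0.0019, 0.0029 and 0.010. The likeness was taken over 2 changes that share the 0h libraries and is a description only.

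The ligands of these receptors split evenly at 6h and fell more often than they rose at 24h. Of 33 matrix and other ligand genes 29 were tested, of which 10 rose and 10 fell at 6h (20.8% and 18.2% of all genes), none rose and 12 fell at 24h (4.17% and 2.87%), and 8 rose and 15 fell from 6h to 24h (17.4% and 18.8%). The median log2 change was -0.0060 at 6h and -0.096 at 24h. Spp1, which encodes the integrin ligand osteopontin, had a log2 change of 0.70 ± 0.029 (SE) at 6h (edgeR adjusted p = 4.71e-17), and Ccn2, a matricellular ligand, rose by 0.32 ± 0.027 (edgeR adjusted p = 1.56e-10). Tnc and Postn, which encode tenascin-C and periostin, rose by 1.05 ± 0.027 and 1.52 ± 0.063. From 6h to 24h Tnc changed by -1.20, Postn by -1.68 and Spp1 by -0.69, and Ccn1, a relative of Ccn2, by 0.34 ± 0.026 (edgeR adjusted p = 2.73e-11). At 24h against 0h Col4a2, a basement membrane collagen chain, changed by -0.16 ± 0.030 (edgeR adjusted p = 0.000664), beside -0.19 for Col1a1, -0.16 for Col5a1 and -0.15 for Tnc.

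Among genes whose products switch integrins on or off inside the cell, 13 of 14 were tested, and 5 rose and 3 fell at 6h (20.8% and 18.2% of all genes), with a median log2 change of 0.064. Fermt2 (kindlin-2), an activator that binds β tails, rose by 0.32 ± 0.024 (SE; edgeR adjusted p = 1.11e-11) and returned by -0.34 from 6h to 24h. Rap1b, a GTPase upstream of talin, rose by 0.16 ± 0.027 and changed by -0.13 afterwards. Tln1 (talin-1), the other main activator, fell by 0.14 at 6h and remained lower by 0.12 ± 0.027 at 24h (edgeR adjusted p = 0.00444). Dab2, an endocytic adaptor for β1, fell by 0.33 ± 0.028 at 6h (edgeR adjusted p = 2.62e-10) and changed by 0.23 from 6h to 24h. Flna (filamin A), which competes with talin for β tails, changed by -0.16 ± 0.027 from 6h to 24h (edgeR adjusted p = 1.98e-05). At 24h 1 of the 13 was higher and 2 were lower (4.17% and 2.87% of all genes). Of these, the call of Itgb1bp1 (ICAP-1, an inhibitor of β1; log2 0.14, edgeR adjusted p = 0.0442) was lost with DESeq2 (adjusted p = 0.0967) and without any 1 of the 0h or 24h libraries (edgeR adjusted p 0.0563 to 0.1395), and that of Dab2 (edgeR adjusted p = 0.0350) without 0h replicate 1 or 2 or any of the 24h libraries (edgeR adjusted p 0.0531 to 0.204).

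All 24 adaptor genes of focal adhesions were tested, and 8 rose and 4 fell at 6h (20.8% and 18.2% of all genes), with a median log2 change of 0.046. Parvb (β-parvin), a partner of integrin-linked kinase, rose by 0.59 ± 0.044 (SE; edgeR adjusted p = 1.29e-11), Tns3 (tensin-3) by 0.42 ± 0.024 and Pdlim5, an actin-associated adaptor, by 0.33 ± 0.028. Tns2 (tensin-2) fell by 0.64 ± 0.031 (edgeR adjusted p = 1.72e-15), opposite to its relative Tns3. From 6h to 24h these 4 changed by -0.56, -0.39, -0.36 and 0.53 in the same order, and over the list 4 rose and 10 fell (17.4% and 18.8% of all genes). At 24h, when 7.04% of all genes were called, 1 was higher (Csrp1, 0.11) and 3 were lower (Tns2, -0.11; Zyx, which encodes zyxin, -0.098; Actn4, an actin crosslinker, -0.080). Each of these 24h calls was lost without 1 of several libraries: 0h replicates 1 and 2 and 24h replicates 2 and 3 for Actn4, Csrp1 and Tns2 (edgeR adjusted p 0.0507 to 0.158), and 0h replicates 2 and 3 and 24h replicate 2 for Zyx (edgeR adjusted p 0.0845 to 0.116).

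The kinase and signalling list had calls in 1 direction only at 6h. Of 21 genes, all tested, none rose and 10 fell (20.8% and 18.2% of all genes), with a median log2 change of -0.081, and from 6h to 24h 8 rose and none fell (17.4% and 18.8%). Nedd9 and Bcar1, a pair of related scaffold proteins phosphorylated by focal adhesion kinase and Src, fell by 0.40 ± 0.048 (SE; edgeR adjusted p = 1.24e-07) and 0.24 ± 0.029 (edgeR adjusted p = 1.16e-07) on the log2 scale. Rhoa, a GTPase of stress fibres, fell by 0.15 ± 0.024, and Git1, a scaffold of the PAK and PIX complex, by 0.19 ± 0.033. From 6h to 24h Nedd9 changed by 0.38, Bcar1 by 0.16, Pak1, a kinase downstream of Rac, by 0.19 and Rhoa by 0.13. At 24h Src was higher by 0.12 ± 0.029 (edgeR adjusted p = 0.00976; 0.0526 without 0h replicate 1) and Git1 lower at -0.13 ± 0.033 (edgeR adjusted p = 0.0164), a call that did not hold without 0h replicate 1 or 2 or 24h replicate 2 or 3 (edgeR adjusted p 0.0641 to 0.136).

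Of 14 genes of membrane proteins that act beside integrins, 6 rose and 6 fell at 6h (20.8% and 18.2% of all genes), with a median log2 change of 0.059. Plaur, the urokinase receptor, rose by 0.55 ± 0.030 (SE; edgeR adjusted p = 3.28e-14), and the syndecans Sdc4 and Sdc2, heparan sulphate coreceptors for fibronectin, rose by 0.39 ± 0.029 and 0.22 ± 0.025. Cav1 (caveolin-1) fell by 0.36 ± 0.026 (edgeR adjusted p = 9.58e-12). Each then changed back from 6h to 24h, by -0.52 for Plaur, -0.29 for Sdc4, -0.23 for Sdc2 and 0.38 for Cav1, and over the list 6 rose and 4 fell (17.4% and 18.8% of all genes). At 24h, when 4.17% of all genes were called higher, 2 were: the tetraspanin Cd63 by 0.15 ± 0.026 (edgeR adjusted p = 0.000292) and Sdc4 by 0.096 ± 0.029 (edgeR adjusted p = 0.0400), the latter not with DESeq2 (adjusted p = 0.0502) or without 0h replicate 2 or 3, 6h replicate 2 or 24h replicate 3 (edgeR adjusted p 0.0505 to 0.240). Of 14 trafficking genes 13 were tested, with 1 higher and 4 lower at 6h (20.8% and 18.2% of all genes) and a median log2 change of -0.033. Dnm2 (dynamin-2), needed for endocytosis, fell by 0.16 ± 0.028 (edgeR adjusted p = 2.49e-05), Snx17, which recycles β1, by 0.14 ± 0.035 and Hip1, an endocytic adaptor, by 0.087 ± 0.028, and Rab11a, a recycling GTPase, rose by 0.090 ± 0.028. The call of Hip1 (edgeR adjusted p = 0.0128) was lost without 0h replicate 3 (edgeR, 0.0619) or 6h replicate 2 (edgeR, 0.0691). At 24h Dnm2 was the only call, at -0.10 ± 0.028 (edgeR adjusted p = 0.0192), and was lost without 0h replicate 1 or 2 or 24h replicate 2 (edgeR adjusted p 0.0641 to 0.126). From 6h to 24h Snx17 (0.12) and Vps35, a retromer subunit (0.078), were higher and Rab11fip1, a Rab11 effector, was lower (-0.098), and each lost its call without at least 1 single library (edgeR adjusted p 0.0634 to 0.144).

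**Figure D3:**
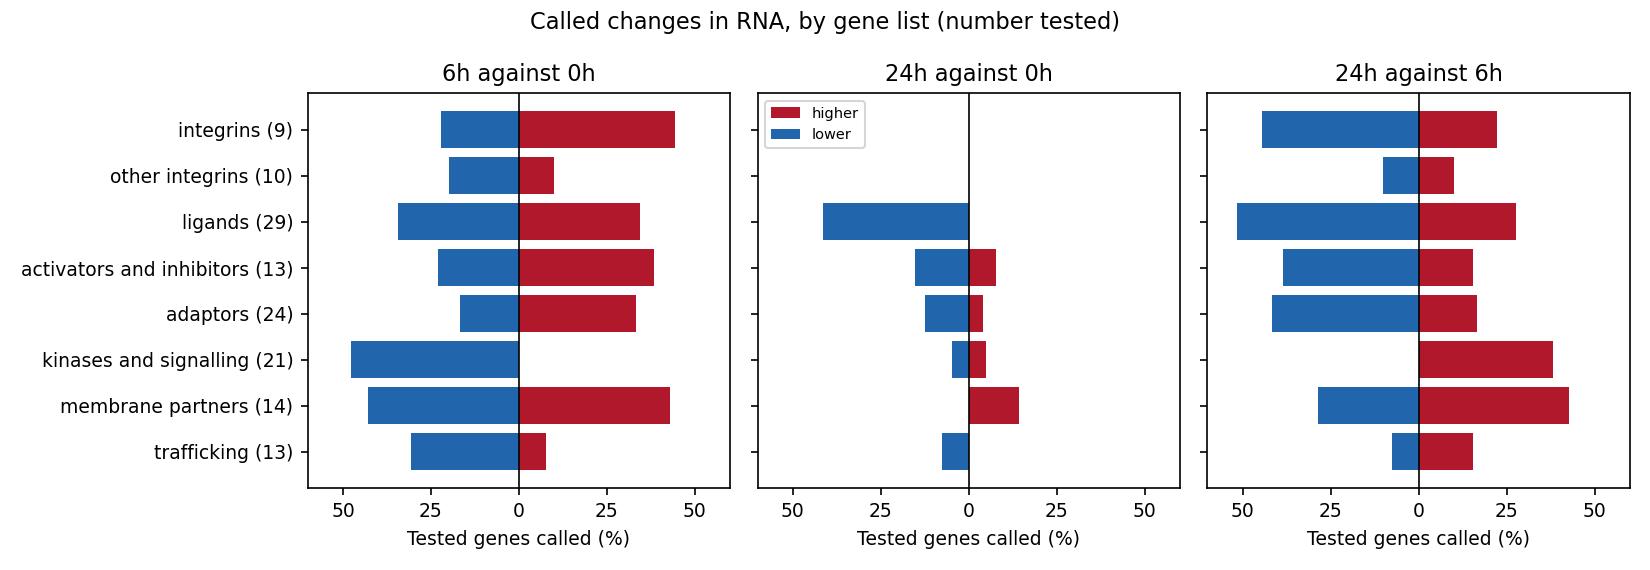
Percent of the tested genes of each list (vertical axis, number tested in parentheses) called lower (blue, to the left of 0) or higher (red, to the right) by edgeR in the 3 comparisons. The kinase and signalling list has only lower calls at 6h, and the ligand list only lower calls at 24h.

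MacroH2A2-GFP regions covered most of the integrin genes in 2 ways. Over the 6 genes of 10 CPM or more (Itgb1, Itgav, Itga5, Itga6, Itgb5, Itga3) the bodies were covered at 6h by 16.4 to 95.8% and were at 0% at 24h and 5d. Most of the 6h coverage of these genes lay in regions of low score: with regions below the median score of the list left out, Itgb1, Itga5, Itga6 and Itga3 were at 0% at 6h, Itgav at 2.78% and Itgb5 at 39.8%. Itgb3 and Itga11, with RNA at 2 to 6 CPM, were covered in all 7 macroH2A2 libraries, 0h included. Coverage is the percent of gene body bases inside the authors' regions after 1 kb was left off at each end, and with 1 library per condition no difference between conditions was tested. The 0h library, made without doxycycline, is the control measured the same way, and whether its regions hold macroH2A2-GFP made before induction was not tested, with H2afy2 RNA at 9.61 to 25.3 CPM in the 0h cells. The libraries' regions covered 201 Mb of the genome at 0h and 338 to 392 Mb in the other macroH2A2 libraries, so the bases covered differ most between 0h and the rest. The number of regions differed in another order, with 28973 at 0h, 62186 at 6h, 44819 at 24h and 79953 at 6h with GSK126.

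**Figure D4:**
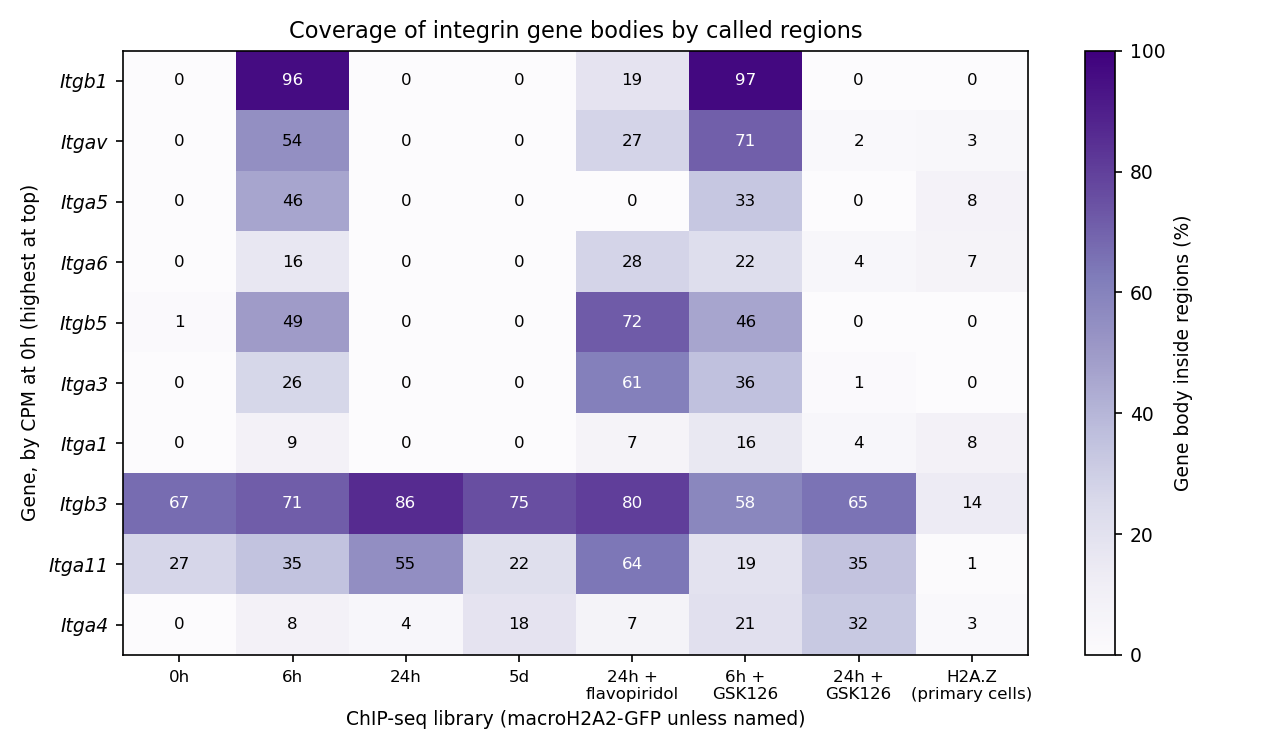
Percent of each integrin gene body (rows, ordered by RNA level at 0h, rounded to whole percent) inside called regions in each of the 8 ChIP-seq libraries (columns; darker is more). The upper 6 rows are covered at 6h, with and without GSK126, and at 0 in the 24h and 5d columns, while Itgb3 is above 50% in all macroH2A2 columns.

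Itgb1 showed the widest swing. Its body (chr8:128685654-128733579, GRCm38) was covered by 95.8% at 6h, in 2 regions of which the longer took up 38.0 kb, against 0% at 0h, 24h and 5d. It was covered by 18.7% at 24h with flavopiridol, by 97.1% at 6h with GSK126 and by 0% at 24h with GSK126. With regions below the median score left out it was 0% also in both 6h libraries and with flavopiridol. Itgav (chr2:83722303-83806917) was covered by 54.5% at 6h and stood at 0% at 0h, 24h and 5d, 27.4% with flavopiridol, 70.7% at 6h with GSK126 and 2.18% at 24h with GSK126. Itgb5 (chr16:33829665-33949338) lay just under the 50% mark at 6h with 49.4%. Its coverage was 1.36% at 0h, 0% at 24h and 5d, 71.9% with flavopiridol, 45.9% at 6h with GSK126 and 0% at 24h with GSK126. Itgb5 therefore differed from Itgb1 in that the flavopiridol library gave the higher value.

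Itga5 (chr15:103344286-103366791) was covered by 45.8% at 6h and by 33.2% at 6h with GSK126, and by 0% in the other 5 macroH2A2 libraries, flavopiridol included, and with regions below the median score left out it was at 0% in all of them. At 6h the coverage of Itga5 was highest towards the 3′ end, where the final stretch of the body, 1 of 3 equal parts, was covered by 92.5%. At 6h with GSK126 the order was reversed, with 65.0% of the first part, 34.5% of the middle part and 0% of the final part covered. Itga3 (chr11:95044475-95076844) was covered by 26.3% at 6h, 60.6% at 24h with flavopiridol and 35.6% at 6h with GSK126, against 0% at 0h, 24h and 5d. Itga6 (chr2:71786886-71858427) was covered by 16.4% at 6h, in a single region of 11.4 kb, by 27.6% with flavopiridol and 22.5% at 6h with GSK126. At 24h with GSK126 the values were 1.32% for Itga3 and 4.03% for Itga6. Neither gene had a covered base at 0h, 24h or 5d. With regions below the median score left out, Itga3 was at 18.4% with flavopiridol and 11.2% at 6h with GSK126, and Itga6 at 11.2% and 13.8%.

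Of the genes under 10 CPM, Itgb3, Itga11 and Itga4 followed other courses. Itga1 was covered at 6h and not at 24h or 5d, as the genes of 10 CPM or more were, but to a lesser extent. Itgb3 (chr11:104608000-104670476) was covered by 67.1% at 0h, 71.4% at 6h, 86.0% at 24h and 75.4% at 5d, and by 80.4% with flavopiridol, 57.9% at 6h with GSK126 and 65.2% at 24h with GSK126. Most of this coverage was thus present without doxycycline. Itga11 (chr9:62677855-62783979) was covered by 26.9% at 0h, 35.0% at 6h, 54.7% at 24h, 21.5% at 5d, 63.7% with flavopiridol, 19.2% at 6h with GSK126 and 34.6% at 24h with GSK126. Its coverage lay towards the 5′ end, with 93.2% of the first of 3 equal parts and 3.46% of the last at 24h. Itga1 (chr13:114958079-115101964) had 8.60% at 6h and 0% at 0h, 24h and 5d, and at most 15.6% in any macroH2A2 library. Itga4 (chr2:79255426-79333114), the gene with the fewest counts, had 0% at 0h, 8.46% at 6h, 4.23% at 24h, 18.5% at 5d, 7.13% with flavopiridol, 20.9% at 6h with GSK126 and 32.1% at 24h with GSK126. In the 5d list called with the wider window and gap, Itga4 was covered by 49.0% and Itga11 by 46.2%, so their values at 5d depend on how regions were called.

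**Figure D5:**
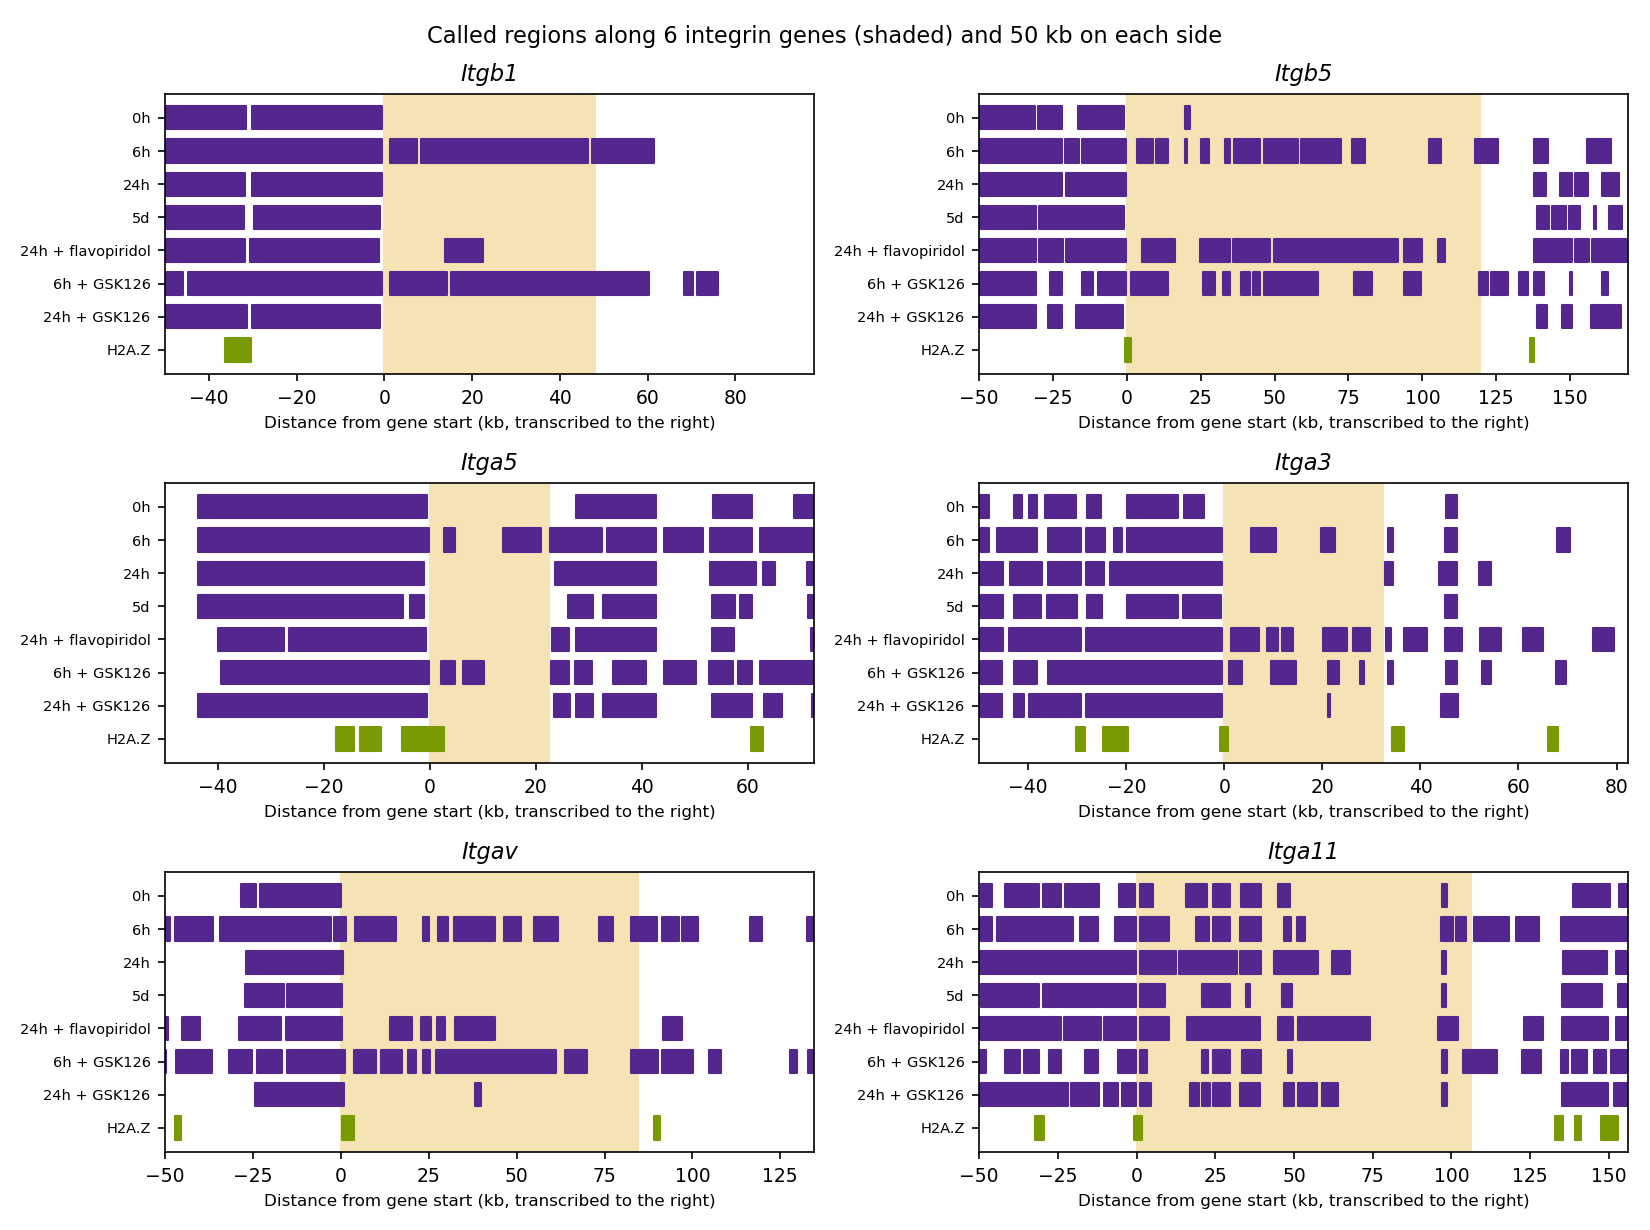
Called regions (bars; purple for macroH2A2-GFP, green for H2A.Z) along 6 integrin genes (shaded) and 50 kb on each side, with distance from the annotated gene start in kb on the horizontal axis and 1 row per library. Regions lie on the upstream side in all macroH2A2 rows, and fill most of the body of Itgb1 in the 6h rows with and without GSK126.

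Set against all genes, the counts were as follows. A body covered by 50% or more was found in 1 of the 10 integrin genes at 0h (Itgb3), 3 at 6h (Itgb1, Itgav, Itgb3), 2 at 24h (Itgb3, Itga11), 1 at 5d (Itgb3) and 4 with flavopiridol (Itgb3, Itgb5, Itga11, Itga3). The share over all 18415 genes was 3.56% at 0h, 12.9% at 6h, 9.28% at 24h, 7.03% at 5d and 13.0% with flavopiridol. Of the 6 integrin genes of 10 CPM or more, 2 reached 50% at 6h, beside 15.3% of 8331 such genes, and none at 0h, 24h or 5d, beside 0.312%, 0.972% and 0.456%. With flavopiridol 2 of the 6 reached it (Itgb5 and Itga3, beside 7.42%), with GSK126 2 at 6h (Itgb1 and Itgav, beside 20.2%) and none at 24h (beside 0.684%). Their 0% at 24h and 5d was also the common state, since 86.9% and 91.9% of genes of that level had no covered base. Coverage was higher by 20 points or more at 6h than at 0h in 5 integrin genes, all of 10 CPM or more, beside 22.9% of all genes and 34.8% of genes of that level. It was lower by 20 points or more from 6h to 24h in the same 5 (Itgb1, Itgav, Itgb5, Itga5, Itga3), beside 18.1% and 32.8%. Of these 5, with regions below the median score left out, Itgb5 alone was covered by more than 20% at 6h.

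With flavopiridol 4 integrin genes were covered by at least 20 points more than at 24h without it (Itgb5, Itga3, Itga6 and Itgav), beside 11.7% of all genes and 15.5% of genes of 10 CPM or more. Itgb1 gained 18.7 points and Itga5 none. With regions below the median score left out, Itgb5 was at 59.996% with flavopiridol, and Itga3, Itga6 and Itgav were at 18.4%, 11.2% and 16.9%. With GSK126 at 6h none of the 10 differed by 20 points from the library without it, beside 13.5% of all genes and 16.9% of genes of 10 CPM or more, and 3 were covered by 50% or more (Itgb1, Itgav and Itgb3), beside 14.2%. With GSK126 at 24h 3 differed by 20 points, beside 7.88% of all genes, and none of the 6 of 10 CPM or more, beside 1.34%: Itga4 was higher (32.1% against 4.23%) and Itgb3 and Itga11 were lower (65.2% against 86.0%, 34.6% against 54.7%). With regions below the median score left out, Itga4 was at 0% in both libraries, Itga11 at 18.4% against 31.7% and Itgb3 at 51.6% against 86.0%. With all regions kept, Itgb3 was the only integrin gene at 50% or more at 24h with GSK126, beside 6.23% of all genes. Between 24h and 5d 1 integrin gene differed by 20 points, Itga11, beside 7.25% of all genes, and none of the 6 of 10 CPM or more, beside 1.58%. RNA was not measured with either inhibitor or at 5d in the libraries used here.

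Upstream of the start sites the expressed integrin genes with a RefSeq start site, and the lowly expressed Itga11, were covered in every macroH2A2 library. The 50 kb before Itgb1 were covered by 95.9% at 0h, 99.1% at 6h, 95.5% at 24h and 93.5% at 5d, and by 95.1 to 96.7% in the 3 libraries with an inhibitor. The same stretch before Itgb5 was covered by 72.3 to 96.7%, before Itga5 by 76.4 to 87.2%, before Itga3 by 57.3 to 94.5% and before Itgav by 48.6 to 90.8%. Among the genes under 10 CPM with a RefSeq start site it was covered by 51.1 to 99.5% before Itga11, 0 to 44.75% before Itga4 and 0 to 8% before Itga1. The share over all genes was not taken for this stretch. Over the macroH2A2 libraries the nearest upstream region ended 454 to 1254 bases before the start of Itgb1, 465 to 1265 before Itgb5, 210 to 1210 before Itga5, 687 to 4287 before Itga3 and 597 to 1997 before Itgav. The promoter windows printed for Itgb1, Itgb5 and Itga3 were therefore free of macroH2A2 regions in all 7 libraries, and in Itga5 a region reached into the window in the 6h libraries with and without GSK126. For Itgav and Itga3 the RefSeq start site used for these distances lies inside the gene as annotated, and part of the window printed for Itga3 does so too. The upstream region crossed the annotated gene start of Itgav in all 7 libraries, by 0.097 kb at 0h and up to 1.497 kb at 6h. A region within 2 kb before the start was found at 24h in all 5 genes of 10 CPM or more with a RefSeq start site (31.0% of 6778 such genes) and already at 0h in 4 of the 5 (14.4%), Itga3 being the exception. Over the 8 integrin genes with such a start site the count was 5 at 0h (13.5% of 14637 genes), 6 at 6h (32.6%), 6 at 24h (28.1%) and 6 at 5d (21.8%). It was 6 with flavopiridol (34.1%), 7 at 6h with GSK126 (33.9%) and 6 at 24h with GSK126 (23.8%), and all 5 of 10 CPM or more were among them in each (43.7%, 43.4% and 26.0% of such genes), as they were at 6h (43.3%) and 5d (21.3%). Itga11 had such a region in all 7 libraries, 55 to 655 bases before the start, Itga4 in the 6h library with GSK126 only, and Itga1 in none.

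H2A.Z regions lay over most integrin start sites and over small parts of the bodies. No integrin gene body was covered by 50% or more (2.76% of all genes, 1.15% of genes of 10 CPM or more), 8 of the 10 had some coverage, and the highest was Itgb3 with 13.6%. Away from the start, H2A.Z regions were found within Itga1 (3 regions), Itga6 (1, of 4.2 kb) and Itgb3 (1, of 6.8 kb). The start site lay inside an H2A.Z region in 7 of the 8 integrin genes with a RefSeq start site, among them the silent Itga4 and the lowly expressed Itga1 and Itga11. The exception was Itgb1, the integrin gene with the most RNA counts, whose nearest upstream H2A.Z region ended 30454 bases before the start. Among genes of 10 CPM or more 92.2% had an H2A.Z region within 2 kb before the start, as had 4 of the 5 integrin genes of that level, and the share was 65.0% over all genes, with 7 of the 8 integrin genes. This library came from female primary cells with their own macroH2A, so it differs from the macroH2A2 libraries in sex, culture and genotype at once.

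Mean body coverage of expressed genes differed between chromosomes. Chromosomes 17, 15 and 8 had the highest mean body coverage of genes of 10 CPM or more in all 7 macroH2A2 libraries, with 50.6%, 49.2% and 42.1% at 6h against 1.67 to 24.9% on the other chromosomes. Itgb1 lies on chromosome 8 and Itga5 on chromosome 15, and none of the 10 lies on chromosome 17. On chromosome 8 39.6% of genes of that level were covered by 50% or more at 6h, and on chromosome 15 49.4%. Itgb1, with 95.8%, was above that mark. Itga5, with 45.8%, was under the 50% mark. At 24h the shares were 2.65% and 4.75%, and Itgb1 and Itga5 were at 0%. The expressed integrin genes on other chromosomes also had covered bodies at 6h, from 16.4% in Itga6 and 26.3% in Itga3 to 54.5% in Itgav. In RNA the tested genes of chromosome 8 had 147 higher and 134 lower calls of 608 at 6h, and those of chromosome 15 had 106 higher and 138 lower of 444. The part of the chromosome in the coverage was not tested.

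Set side by side, the 3 genes with the clearest rise in RNA at 6h (Itgb1, Itga5, Itga6) had body coverage of 95.8%, 45.8% and 16.4% at that time, and the 2 that fell (Itgb5, Itga3) had 49.4% and 26.3%. Coverage at 6h was thus seen in integrin genes that rose and in those that fell.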

How the data were processed

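RNA values were the authors' deposited raw counts per gene, from reads aligned with STAR 2.5.2b per the submitters' processing notes, without normalization. ChIP-seq regions were called by the authors with SICER 1.1 after alignment with Bowtie 1.1.2 to GRCm38, per the submitters' processing notes. The deposited lists used 200-base windows, gaps up to 800 bases and a threshold of 0.01, and hold a score for each region (a whole number, with a reference not given in the sources used here) beside a running number that is no measurement. The read depth behind a region is unknown, and the input library was not used here.

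Counts were those of column 4, the sense strand (at least 96.6% of stranded counts per library), and 21.2 to 23.1% of reads had no single gene. All 9 RNA libraries were fitted together in R 4.3.3 with edgeR 4.0.16 (filterByExpr, TMM, quasi-likelihood test, time only), which kept 13785 genes. P-values were adjusted by Benjamini-Hochberg over all of them, and genes under 0.05 were called without a fold threshold. P-values weigh the difference between times against the spread between replicate libraries, as estimated in the joint fit of all 9. The replicates came from the same cell line, so spread between lines or animals is not included. CPM of the tested genes were TMM-normalised. The summed marker levels, the CPM of Itga4 and the grouping of genes by CPM for ChIP-seq were scaled to library totals only. No exon lengths were at hand, so that a split of genes by CPM or their order by CPM also reflects transcript length. The fit was tested on simulated data. The replicate numbers did not pair the libraries.

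Body coverage used RefSeq GRCm38.p6 positions of protein-coding genes of 3 kb or more, Python 3.11.15, numpy 2.4.6 and pandas 2.3.3, with 1 kb left off at both ends. Promoters came from the RefSeq GRCm38.p6 table, where 8 of the 10 genes matched. Figures were drawn with matplotlib 3.10.9. Named were all 10 genes, every further integrin gene that passed the filter, up to 4 called members per list and comparison with the smallest p, and 3 genes most like the member with the largest rise and fall. The members and lists were chosen with earlier results of these data known. Alternatives were RLE scaling, no filter on low counts, DESeq2 1.42.0, fits of 6 libraries only, unstranded counts, the replicate number as a block, each library left out, and for regions no trimming, a minimum score, a minimum length of 2 kb and, at 5d, the deposited list made with 1000-base windows and gaps up to 4000 bases.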

Additional observations from a re-analysis of the deposited data

Results flagged for a closer look

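In 6 integrin genes the change at 24h differed from the change at 6h, both against the same 0h libraries, by the edgeR contrast of 24h with 6h. The difference on the log2 scale was -0.48 for Itgb1 (edgeR adjusted p = 3.87e-16), -0.48 for Itga5 (edgeR adjusted p = 3.93e-14), -0.32 for Itga6 (edgeR adjusted p = 8.67e-11) and -0.12 for Itgav (edgeR adjusted p = 0.000363), each of which was higher at 6h. It was 0.31 for Itgb5 (edgeR adjusted p = 2.49e-09) and 0.30 for Itga3 (edgeR adjusted p = 4.56e-07), which were lower at 6h. In each of the 6 genes all 3 libraries at 24h lay on the same side of all 3 at 6h, and a call between 6h and 24h was found in 36.1% of all genes tested.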

How the results depend on the processing

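In RNA 5 to 6 of the 9 tested integrin genes were called at 6h, none at 24h, and 6 between 6h and 24h, under all 15 alternatives, the single change being Itgav at 6h. Of the values of the integrin genes under the alternatives 378 kept their direction and side of the threshold, 6 lost a call (all Itgav at 6h) and 18 changed sign, none of which was a called value. At 24h Itgb1 had log2 changes of -0.000947 with RLE scaling, -0.000969 with DESeq2 and -0.00717 to 0.012 with 1 library left out, and Itga6 had -0.000938 with RLE scaling, -0.00101 with DESeq2 and -0.0129 to 0.011 with 1 library left out. With 1 library left out Itga3 ranged from -0.055 to 0.0098 at 24h, Itga11 from -0.27 to 0.038 at 6h, from -0.33 to 0.031 at 24h and from -0.19 to 0.14 between 6h and 24h, and Itgb3 from -0.050 to 0.056 between 6h and 24h. The cause was not tested. The replicate numbers did not pair the libraries (correlation of same-numbered deviations -0.030 to 0.14, of different numbers -0.16 to 0.079), and with the replicate number as a block 6 genes were called at 6h, 0 at 24h and 6 between 6h and 24h. Among the further named genes the replicate block ended the call of Itgb1bp1 at 24h (edgeR adjusted p = 0.0536) and added that of Itgb8 between 6h and 24h (edgeR adjusted p = 0.0399). With regions below the median score of their list left out, genes covered by 50% or more went from 3 to 1 at 6h, 2 to 1 at 24h, 4 to 2 with flavopiridol and 3 to 1 at 6h with GSK126, since fewer regions remained. The 0h and 5d lists have a median score of 1, so that this removed nothing there. Counts of genes at 50% or more stayed within 1.5 times without trimming, with regions of 2 kb or more and with the wider window at 5d, where the coverage itself moved from 18.5 to 49.0% for Itga4 and from 21.5 to 46.2% for Itga11. Genes of a few counts, such as Itga4, and regions of unknown read depth limit what can be seen.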
